A study of Coryphaena hippurus with 21 samples.

Results

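Mahi-mahi (Coryphaena hippurus) larvae that had developed in source oil at 0.25% were compared with larvae from clean seawater at 48 hours post fertilization (hpf) by small RNA sequencing. The comparison used 6 of the 21 libraries of the study, 3 of source oil (columns M1, M3 and M5) and 3 of control (columns C4, C5 and C6), taken by their group labels from the count table of this exposure. Source oil was given as a diluted HEWAF (high-energy water-accommodated fraction), made by blending oil into seawater. It was added once, without renewal, and eggs entered the beakers soon after a natural spawn. Both groups were kept at 27 °C under 16 h of light and 8 h of dark, and the controls lay at a concentration of 0%. The group is called source M below. Its samples are titled mass, and they were read as source oil since slick and source are the oils that the series text mentions. RNA was isolated from pooled whole larvae, so fewer cells of a type and less RNA per cell cannot be told apart. Nothing in the labels tells if libraries of one group stem from different beakers or pools, and p-values therefore measure the spread between these libraries, which may be technical.

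MicroRNAs (miRNAs) are short RNAs that guide Argonaute proteins to messenger RNAs and lower their translation and stability. Pairing rests mainly on the seed, a stretch near the 5′ end, so miRNAs with one seed form a family with overlapping targets. Many animal miRNAs lie in clusters that are transcribed together, and many mark a tissue: miR-206 skeletal muscle, miR-9 and miR-124 the nervous system, and miR-126 endothelium.

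The 3 source M libraries held 3641165 to 7198086 counts and the 3 control libraries 6152806 to 7515865. The table listed 189 distinct names of 111 families, with the prefixes of 38 species and none of mahi-mahi. Zero counts occurred in 5 of the 6 libraries and never in M1, so the table lists names that were counted in M1 and no others. A further 82 names had counts in the same control libraries in the tables of the other exposures. Names of one family often carried the same or nearly the same counts, or held 0 in a library where another name of the family held counts. Sequences were not compared, so shared reads are inferred from the counts. Of 224 counts of 0, 176 belonged to names that reached 100 counts in another library. Whether another name of the family held counts in each of these cases was not tallied. Single names were therefore tested only where all 6 libraries were above 0, and family totals were formed in several ways. Among all 21 libraries, the first principal component (51.3% of the variance over 99 names) set apart 7 libraries, namely all 3 of source M, all 3 of source oil at 0.5% and library L3 of source oil at 0.125%. The lowest of the 7 lay at 4.97 and the highest of the other 14 at -2.04. All results for source M come from this set. The labels name no batch, and any handling shared by the 7 libraries cannot be told apart from the exposure.

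Single miRNA names changed widely and in both directions. Of 108 names tested, 61 (56.5%) were called at an adjusted p under 0.05 with edgeR's quasi-likelihood test, 30 higher (27.8%) and 31 lower (28.7%) in source M. In 60 of the 61 the groups did not overlap, and the exception was mse-let-7a. Over all names tested, 71 (65.7%) did not overlap. In every fit that left out 1 library 36 names were called, 13 higher and 23 lower. The balance of directions rested on the scaling: with total counts in place of TMM factors, which moved the median log2 fold change of all names by -0.25, 19 names were called, 2 higher and 17 lower, and all 19 were among the 61. The authors' deposited table listed 114 names and called 58 of them, 27 higher and 31 lower. Of those 58 calls in the authors' deposited table, 56 were also called here and 0 in the opposite direction.

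Family totals gave a shorter list. Under the rule that counts names with equal counts once, 34 of 82 families (41.5%) were called, 15 higher (18.3%) and 19 lower (23.2%), and in 44 families (53.7%) the groups did not overlap. With counts within 2% of each other in a library counted once, 38 of 82 (46.3%) were called, 17 higher (20.7%) and 21 lower (25.6%), with 44 (53.7%) not overlapping. With control names of the other tables added as well, 37 of 84 (44.0%) were called, 15 higher (17.9%) and 22 lower (26.2%), with 45 (53.6%) not overlapping. Of the 34 families, 31 were called in the same direction in 4 ways of summing names: these 3 and the highest name of each family. All but the rule were added after the data were seen. The 12 higher families were miR-19, miR-34, miR-93, miR-100, miR-137, miR-138, miR-181, miR-217, miR-460, miR-734, miR-1306 and miR-7132. The 19 lower were miR-18, miR-20, miR-26, miR-30, miR-92, miR-126, miR-130, miR-135, miR-155, miR-182, miR-196, miR-199, miR-222, miR-301, miR-375, miR-454, miR-462, miR-499 and miR-737. Names outside this table were added to the controls only, so any reads of M3 and M5 under such names are left out. In the sum with near-equal counts once and control names added, each of the 3 source M libraries lay above all controls in all 12 higher families. In all 19 lower ones each lay below all controls. These 31 families were chosen by calls that include this sum, so their separation is not further evidence. In every fit that left out 1 library 14 were called, the higher miR-19, miR-93 and miR-217 and the lower miR-18, miR-30, miR-92, miR-126, miR-130, miR-155, miR-196, miR-222, miR-301, miR-462 and miR-499. With total counts as scaling 9 of the 31 were called: miR-138 higher, and miR-92, miR-126, miR-130, miR-155, miR-196, miR-222, miR-301 and miR-375 lower.

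**Figure D1:**
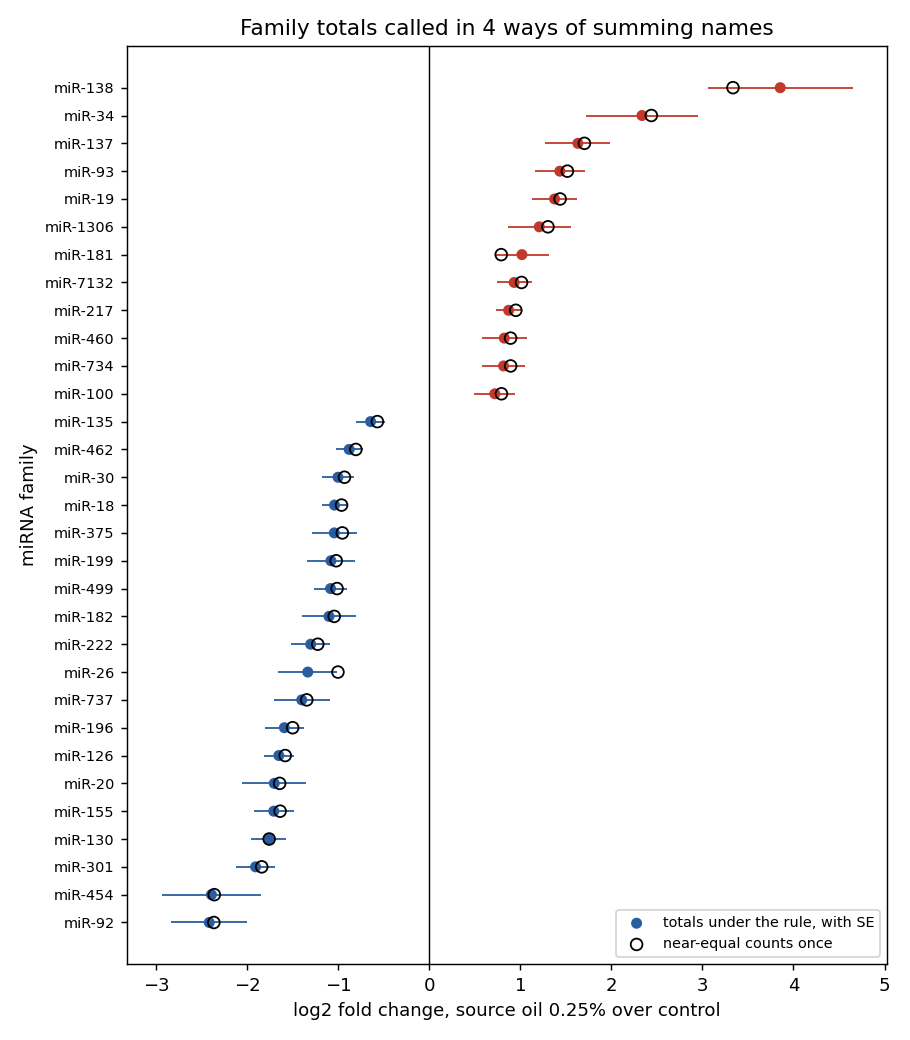
Log2 fold change of the 31 family totals called in 4 ways of summing names, source oil 0.25% over control, 3 libraries a group. Filled points are totals under the rule with bars of 1 SE, open circles count near-equal counts once, and red and blue mark higher and lower families. The families run from miR-92 at -2.42 to miR-138 at 3.85.

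The miRNAs of the let-7 family, which rise during animal development and time cell differentiation, included names called in either direction. The name ola-let-7g stood at 125, 186 and 147 CPM (scaled counts per library, from TMM factors and library totals) in M1, M3 and M5, against 1384, 1401 and 1280 CPM in C4, C5 and C6. All source M libraries lay far below all controls, and the log2 fold change of -3.15 ± 0.22 SE (adjusted p = 7.2e-05) was the lowest of the 108 names. The scarce ola-let-7e was lower as well, at 2.73 ± 0.83 (SD, n = 3) against 6.77 ± 1.83 CPM (log2 fold change -1.34, adjusted p = 0.0146). In the opposite direction, mse-let-7a read 12613, 12222 and 3475 CPM against 4115, 3225 and 3411. Its M5 library lay within the control range, and the log2 fold change was 1.40 ± 0.45 (adjusted p = 0.0323), a call that held in 1 of 6 fits that left out 1 library, where let-7g and let-7e held in all 6. For ssc-let-7i the log2 fold change was 0.32 (adjusted p = 0.299). The ratio of let-7g to let-7a counts was 0.00991, 0.0152 and 0.0422 in the source M libraries and 0.336 to 0.434 in the controls. Of 9 names of let-7 and miR-98 listed, 4 were tested. Whether let-7 names shared or swapped reads between libraries was not tested. The family total, which let-7a and other abundant names dominate, was not called under the rule (log2 fold change 1.52, adjusted p = 0.103) and was called higher with near-equal counts once (1.36, adjusted p = 0.041).

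**Figure D2:**
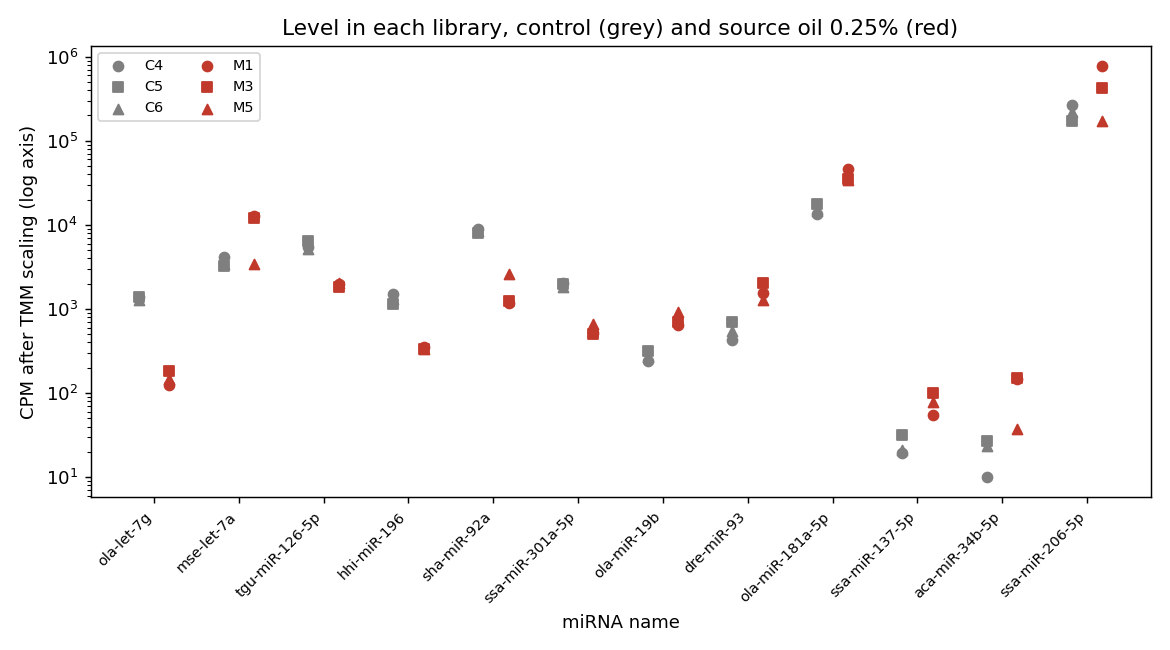
CPM after TMM scaling on a log axis for 12 names in each of the 3 control libraries (grey) and the 3 source oil 0.25% libraries (red), with a marker for each library. The groups stand fully apart for ola-let-7g, from 125 to 186 CPM against 1280 to 1401, while the red points of ssa-miR-206-5p spread from 171740 to 765117 CPM.

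The miR-17-92 cluster and its paralogs, which are transcribed as polycistrons and promote proliferation in mammals, held names of either direction. Of 10 names tested, 3 were higher, 3 lower and 4 not called, which is near the shares over all names (27.8% higher and 28.7% lower). The median log2 fold change was -0.04 against 0.12 over all names tested. The name sha-miR-92a had 1183, 1251 and 2576 CPM in source M and 8853, 7935 and 8558 CPM in control. Every source M library lay far below the controls (log2 fold change -2.34 ± 0.34, adjusted p = 0.00196). The name oan-miR-20a-5p fell by 1.63 on the log2 scale (adjusted p = 0.00417), from 3113 ± 819 to 1002 ± 274 CPM. The third lower name was ssa-miR-18a-5p, at 5471, 4351 and 4349 CPM against 9077, 9120 and 8831 (-0.93, adjusted p = 0.00634).

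Within the same clusters, ola-miR-19b read 646, 705 and 919 CPM in source M and 240, 315 and 269 CPM in control. It rose by 1.46 ± 0.22 on the log2 scale (adjusted p = 0.00196), and ssa-miR-19c-4-5p had nearly the same counts and so is not a second observation. The name dre-miR-93, which shares the seed of miR-17 and miR-20, rose from 559 ± 141 to 1611 ± 391 CPM (log2 fold change 1.53, adjusted p = 0.00392). Its seed relatives moved otherwise: miR-20a fell, ola-miR-17 had a log2 fold change of 0.07 (adjusted p = 0.813) and ola-miR-106a one of -0.56 (adjusted p = 0.106). Likewise miR-92a fell while hsa-miR-25-5p, of a family that is grouped with miR-92 by seed, stood at -0.16 (adjusted p = 0.638). No sequence was checked, so whether this name, marked 5p, holds that seed was not tested. The ratio of miR-19b to miR-92a counts was 0.546, 0.564 and 0.357 in the source M libraries and 0.0271 to 0.0398 in the controls.

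The miR-130, miR-301 and miR-454 families, which are grouped by seed, were all lower. No sequence was checked here either, and the names tested differ in the arm they are marked with. Whether each of them holds that seed was therefore not tested. Of 6 names tested 6 were called lower, where 28.7% of all names were, with a median log2 fold change of -1.81 against 0.12 over all names. The name ssa-miR-301a-5p had 512, 509 and 666 CPM in source M and 2047, 1984 and 1823 CPM in control (-1.79 ± 0.19, adjusted p = 0.000535). The name ccr-miR-454b had 83.9, 82.4 and 231 CPM against 509, 859 and 644 CPM (-2.34 ± 0.45, adjusted p = 0.00487). The groups did not overlap for any of the 6, as for 65.7% of all names, and M5 was the highest source M library for miR-454b. Lower too were dre-miR-301c-5p (-1.82), hsa-miR-130b-5p (-1.60), ipu-miR-130c (-2.07) and ola-miR-130c (-1.57). Both miR-130c names had the same count in M1 and in M3, so they are not separate observations there.

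**Figure D3:**
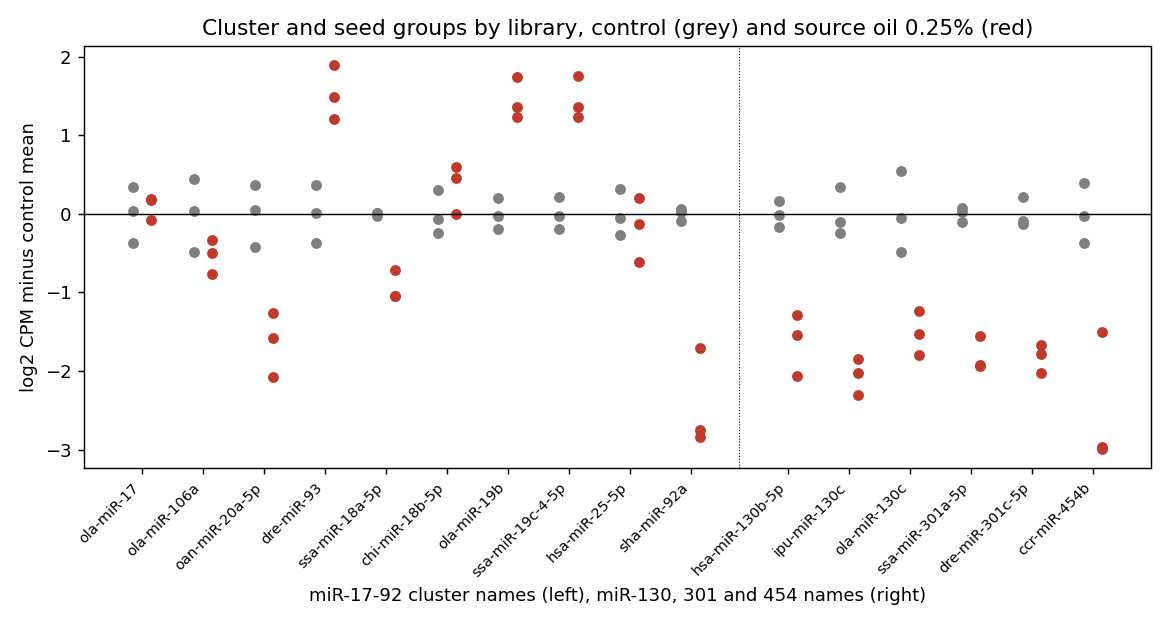
Log2 CPM of each library minus the mean log2 CPM of the 3 controls, for 10 names of the miR-17-92 clusters (left) and 6 names of miR-130, miR-301 and miR-454 (right), control in grey and source oil 0.25% in red. On the left, 3 names lie above the controls and 3 below, while all 6 on the right lie below.

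The endothelial tgu-miR-126-5p, which lies in an intron of the vertebrate gene Egfl7 and maintains vessel integrity, read 1973, 1842 and 2016 CPM in source M and 5397, 6521 and 5161 CPM in control. The source M libraries were close together and all lower (log2 fold change -1.55 ± 0.19, adjusted p = 0.000868). Of the miR-23, miR-24 and miR-27 cluster, efu-miR-27b fell by 1.18 (adjusted p = 0.0131), while oar-miR-23b (1.16, adjusted p = 0.0183) and dre-miR-23a-3-5p (0.91, adjusted p = 0.0448) rose. The 3 names of miR-24 rose by 0.54 each (adjusted p = 0.0335) and held identical counts, under 3p and 5p names alike, so they are 1 observation and the arm in a name is not reliable here. The family total of miR-23 was not called under the rule (0.94, adjusted p = 0.103), was called higher with near-equal counts once (0.58, adjusted p = 0.041), and was not called when control names were added as well (0.23, adjusted p = 0.469). Leaving out 1 library kept the call in 5 of 6 fits for miR-23b and miR-27b, in 2 for miR-24 and in 1 for miR-23a.

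The name ssa-miR-222a-5p fell from 2076 ± 262 to 1097 ± 361 CPM (-0.92, adjusted p = 0.0263). Its cluster partner gga-miR-221-5p stood at 3228, 3451 and 2183 CPM against 1319, 2655 and 1578 CPM, with overlapping groups and a log2 fold change of 0.67 (adjusted p = 0.106). The ratio of miR-221 to miR-222a counts was 2.59, 5.03 and 1.61 in source M and 0.572, 1.24 and 0.882 in control. The miR-222a call held in 3 of 6 fits that left out 1 library. Of the whole endothelial and smooth muscle list 5 of 14 names rose, 3 fell and 6 were not called. This is near the 56.5% called over all names. The median log2 fold change was 0.49 against 0.12, but the 5 higher names include the 3 miR-24 names, which held identical counts. Of the list's 8 family totals under the rule 0 rose and 2 fell, with a median of 0.09 against 0.08 over all families. With near-equal counts once 2 rose and 3 fell, with a median of 0.31 against 0.15.

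Of 4 Hox cluster names tested 2 fell and 2 were not called, where 28.7% of all names were called lower. Both tested names of miR-196, which lies among the posterior Hox genes and targets Hox messages, were lower. The name hhi-miR-196 stood at 349, 333 and 332 CPM in source M and 1509, 1154 and 1308 CPM in control (-1.97 ± 0.18, adjusted p = 0.000348), and tgu-miR-196 at 1341, 1170 and 703 CPM against 2640, 2275 and 2630 CPM (-1.23, adjusted p = 0.00717). No source M library reached the control range for either, and the groups did not overlap for 65.7% of all names. The names of miR-10, from nearer the anterior genes of the same clusters, were not called: mdo-miR-10b-5p had a log2 fold change of -0.34 (adjusted p = 0.219) and sha-miR-10b one of -0.06 (adjusted p = 0.806).

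Of 15 neural names tested 6 rose, 3 fell and 6 were not called, which is near the 56.5% called over all names. Their median log2 fold change was 0.38 against 0.12 over all names. The 12 neural family totals gave 3 higher and 1 lower under the rule, with a median of 0.20 against 0.08 over all families. With near-equal counts once they gave 2 higher and 2 lower, with a median of 0.14 against 0.15. The family total of miR-138, which is abundant in brain and which patterns the zebrafish heart, rose most among the 31 families. Its counts, with near-equal counts once, were 1132 in M1, 2153 in M3 and 727 in M5 against 173, 208 and 192 in C4, C5 and C6. That corresponds to 303, 354 and 150 CPM against 24.0, 28.4 and 27.5 CPM, so that every source M library was several times above every control. The log2 fold change was 3.34 ± 0.37 (adjusted p = 0.00172), and 3.85 ± 0.79 under the rule (adjusted p = 0.0146). None of its 3 names was above 0 in all 6 libraries, so the single-name test did not hold it. The rule's total was called in 4 of 6 fits that left out 1 library and the total with near-equal counts once in all 6.

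The name ssa-miR-137-5p, of a miRNA of the nervous system, had 54.4, 99.7 and 79.4 CPM in source M and 19.5, 31.6 and 20.9 CPM in control (log2 fold change 1.70 ± 0.32, adjusted p = 0.00464). The name dre-miR-153b-5p rose by 0.62 (adjusted p = 0.0209), called in 2 of 6 fits that left out 1 library. The brain miRNA mdo-miR-128a-5p had 7632, 4538 and 8819 CPM against 22205, 14813 and 13346 CPM and fell by 1.26 (adjusted p = 0.0131). Here all source M libraries lay below the controls, and the family total was not called under the rule (-0.73, adjusted p = 0.168) but was lower with near-equal counts once (-1.32, adjusted p = 0.0181). The names ola-miR-135a (-1.38, adjusted p = 0.00653) and ola-miR-135b (-0.68, adjusted p = 0.017) fell, and sha-miR-135a stood at 0.38 (adjusted p = 0.197). The abundant aca-miR-9-5p stood at 231685 ± 13487 CPM in source M and 287409 ± 19973 CPM in control, with a log2 fold change of -0.31 that was not called (adjusted p = 0.11), whereas the authors' deposited table called it lower at -0.35.

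For miR-124 and miR-218 single names were called and at least 1 way of summing the family gave no call. The name ola-miR-124-5p was called higher (log2 fold change 1.26, adjusted p = 0.00347), as were dre-miR-124-4-5p (0.91, adjusted p = 0.016) and sma-miR-124b-5p (1.11, adjusted p = 0.0462). The first 2 names held the same count in each source M library and different counts in each control library. The family total was called higher under the rule (0.99, adjusted p = 0.0224) and stood at 0.06 (adjusted p = 0.866) once near-equal counts were counted once. The name ola-miR-218b was called higher (1.29, adjusted p = 0.0323), with 9925, 8461 and 9637 CPM against 2665, 2135 and 6628 CPM, and the call held in 2 of 6 fits that left out 1 library. Its ratio to ipu-miR-218a was near 1 in M3 and in C6 and far from 1 in the other libraries, and the family total with near-equal counts once was not called (0.37, adjusted p = 0.285).

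Of 3 muscle names tested 1 was called, lower, where 56.5% of all names were called. The name ggo-miR-499a, which lies in an intron of a myosin gene in vertebrates and is made in slow and heart muscle, had 836, 585 and 755 CPM in source M and 1591, 1345 and 1300 CPM in control. It fell by 0.96 ± 0.20 (adjusted p = 0.00686) with no overlap. The skeletal muscle miRNA ssa-miR-206-5p took 36.4% ± 12.3 (SD, n = 3) of all counts in source M and 23.8% ± 3.26 in control. By library it stood at 765117, 422512 and 171740 CPM against 267098, 170803 and 221086 CPM. M1 and M3 lay above all controls and M5 within their range, and the log2 fold change of 1.04 ± 0.47 was not called (adjusted p = 0.0995). The name rno-miR-133b-5p, expressed with miR-206 in muscle, stood at 0.60 (adjusted p = 0.194).

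Among the source M libraries, counts under names of the heart and muscle miRNA miR-1 were listed in full only for M1. There the name tgu-miR-1-2-5p held 12078 counts, while M3 and M5 held 0 under it. In M1 dre-miR-133a-2-5p, of another sequence family, held 12080 counts, which is within 2% of that value, and whether reads were shared between these names was not tested. With the names of other tables the controls held 409288, 467176 and 358446 counts. Scaled, M1 stood at 3711 CPM and the controls at 49908 to 64492 CPM, so M1 lay below all of them. This is 1 library against 3, so no test applies. Whether M3 and M5 held reads under names counted in neither M1 nor this table was not tested.

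Of 6 blood and immune cell names tested 2 rose, 2 fell and 2 were not called, near the 56.5% called over all names. The name tgu-miR-155-5p, of activated lymphocytes and macrophages in mammals, had 6.45, 4.62 and 4.94 CPM in source M and 13.0, 20.6 and 14.8 CPM in control (-1.60 ± 0.29, adjusted p = 0.00431). The teleost ola-miR-462 fell from 330 ± 41.3 to 195 ± 35.4 CPM (-0.76, adjusted p = 0.0176), a call that held in 4 of 6 fits that left out 1 library. Its cluster partner ola-miR-731 had a log2 fold change of 0.04 (adjusted p = 0.926). The name ola-miR-142, of blood cells, rose from 34.8 ± 5.79 to 63.4 ± 12.8 CPM (0.87, adjusted p = 0.0235), and tgu-miR-142-5p had identical counts. Their call held in 2 of 6 fits that left out 1 library. The miR-142 family total, which also holds mmu-miR-142b, was not called (0.57, adjusted p = 0.395). The erythroid ssa-miR-144-3p was not listed in the source M table. In the tables that list it, the controls held 2600, 2507 and 2735 raw counts. Source oil at 0.125% held 1006, 886 and 165, and source oil at 0.5% held 359, 797 and 0. Slick oil libraries lay below the controls too, at 1255 to 1869 for 0.5%, 1410 to 2073 for 1% and 529 to 1113 for 2%. These counts are not scaled for library size, and whether reads stood under other names was not tested.

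Among miRNAs of the digestive organs, tgu-miR-217-5p, which is made in the exocrine pancreas, rose and the endocrine ipu-miR-375 fell. The name tgu-miR-217-5p had 2208, 2172 and 1858 CPM in source M and 1040, 1145 and 974 CPM in control, with no overlap and little spread (0.98 ± 0.18, adjusted p = 0.00435). The name ipu-miR-375, of pancreatic islets and neuroendocrine cells, had 2219, 1292 and 1021 CPM against 2640, 2717 and 3016 CPM (-0.89 ± 0.30, adjusted p = 0.0357). The name was called in 1 and its family total in 2 of 6 fits that left out 1 library. The scarce name ssa-miR-194b-5p, of gut and liver epithelium, fell by 1.47 (adjusted p = 0.013) from 12.6 ± 2.05 to 4.45 ± 2.07 CPM. The other tested name of miR-194, ola-miR-194-5p, stood at -0.05 (adjusted p = 0.866), and the miR-194 family total was not called. Of 4 digestive organ names tested 1 rose, 2 fell and 1 was not called, where 56.5% of all names were called.

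The miR-181 family, which acts in lymphocytes and vessels of mammals and is abundant in brain and retina, was higher. The name ola-miR-181a-5p had 45635, 35048 and 34223 CPM in source M and 13325, 17680 and 14538 CPM in control (1.34 ± 0.21, adjusted p = 0.00261). The name cfa-miR-181b had 17211, 17359 and 10548 CPM against 4690, 6123 and 4935 CPM (1.52 ± 0.26, adjusted p = 0.00347), and ssa-miR-181b-5p rose by 1.28. All 3 were called in every fit that left out 1 library. The fourth name tested, hsa-miR-181b-2-3p, had a log2 fold change of -0.62 and was not called (adjusted p = 0.0929). The family total was less firm: it stood at 1.02 (adjusted p = 0.0381) under the rule and 0.79 (adjusted p = 0.0296) with near-equal counts once, and was called in 1 of 6 fits that left out 1 library.

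The name aca-miR-34b-5p, of a family that p53 induces in mammals and that multiciliated cells need, rose most among single names. It had 147, 150 and 37.5 CPM in source M and 10.2, 26.9 and 23.4 CPM in control. M5 stood well below M1 and M3 yet above the controls, and the log2 fold change was 2.47 ± 0.59 (adjusted p = 0.0107). The name was called in every fit that left out 1 library, and its family total, tested among other features, in 1 of 6.

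Further names rose with no overlap between groups. These included ssa-miR-734-5p (log2 fold change 0.90, adjusted p = 0.00771), ssa-miR-7132b-5p (1.05, adjusted p = 0.00771), ola-miR-460-5p (0.91, adjusted p = 0.0156), ola-miR-100 (0.85, adjusted p = 0.0198) and mmu-miR-1306-5p (1.36, adjusted p = 0.0192). Of the fits that left out 1 library, miR-734 and miR-7132b were called in 6 of 6. The miR-460 name was called in 4, and the miR-100 and miR-1306 names in 3 each. The names aca-miR-727-5p (0.86, adjusted p = 0.0359) and ola-miR-187 (0.71, adjusted p = 0.0497) rose too, each called in 1 of 6 fits that left out 1 library. The miR-727 total was not called in any of the 4 ways of summing, and the miR-187 total was called higher in 1, with near-equal counts once and control names added (0.65, adjusted p = 0.0447).

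Among the other lower names, cgr-miR-26a, from introns of vertebrate genes for C-terminal domain phosphatases, had 23605, 21231 and 23290 CPM in source M and 43883, 49924 and 39468 CPM in control (-0.97 ± 0.18, adjusted p = 0.00447). The source M libraries agree closely and lie at about the same distance below the controls. The name aca-miR-199a-5p, of connective tissue, fell by 1.00 (adjusted p = 0.0107) from 9517 ± 1524 to 4773 ± 1063 CPM. The miRNA that shares its transcript in vertebrates, read as ola-miR-214, stood at 17.2, 16.7 and 225 CPM against 103, 75.9 and 86.6 CPM. M1 and M3 lay below all controls and M5 above them, and no call was made (-0.03, adjusted p = 0.981). This name holds a small part of the family. The name oan-miR-214-5p was not called (0.23, adjusted p = 0.594). The miR-214 total with near-equal counts once stood at 227, 338 and 818 CPM against 474, 363 and 410 CPM and was not called. The sensory organ miRNA chi-miR-182 fell by 1.01 (adjusted p = 0.014) from 13458 ± 1995 to 6698 ± 1906 CPM, while chi-miR-96 of the same cluster had a log2 fold change of 0.53 (adjusted p = 0.078). The miR-182 call held in 4 of 6 fits that left out 1 library. The third cluster member, miR-183, held 25983 counts in M1 and, under names of other tables, 132600, 94862 and 0 counts in C4, C5 and C6. These control counts cover the names of other tables only, so the 0 in C6 does not show that miR-183 was absent there.

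The names dre-miR-737-5p (-1.32, adjusted p = 0.00675), ola-miR-148 (-0.65, adjusted p = 0.0367), ola-miR-101b-3p (-1.12, adjusted p = 0.0343) and ssa-miR-22b-5p (-1.10, adjusted p = 0.0183) also fell, with miR-148 and miR-101b called in 1 of 6 fits that left out 1 library. With near-equal counts once and control names added, the miR-22 total stood at 37899, 28920 and 25316 CPM in source M. The controls stood at 25632 to 31896 CPM. These ranges overlap, and the log2 fold change was 0.10 (adjusted p = 0.764). Of the miR-30 family only oar-miR-30d was tested as a single name (-0.37, adjusted p = 0.164). Its total, with near-equal counts once, was 4414, 4192 and 4388 CPM in source M and 6933, 8941 and 8902 CPM in control (-0.93 ± 0.17, adjusted p = 0.00863), with no overlap.

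The families called under the rule that lost the call in another of the 4 ways of summing were miR-203, miR-125 and miR-124. The skin miRNA miR-203 showed a log2 fold change of 4.18 (adjusted p = 0.000706) under the rule. In the source M libraries its reads stood under ipu-miR-203b, with 76099, 195825 and 80895 counts, and that name was at 0 in all 3 controls. The same control libraries held 161189, 261178 and 229868 counts under dre-miR-203b-5p, a name listed in other tables and not in this one. With near-equal counts once and control names added, the family stood at 20614, 31200 and 19663 CPM in source M. The controls stood at 22927, 36807 and 34721 CPM, and the log2 fold change was -0.40 (adjusted p = 0.277). The miR-203 value of the rule thus sets reads under different names against each other. The miR-125 family went from 1.58 (adjusted p = 0.0348) under the rule to 0.03 (adjusted p = 0.96) with near-equal counts once and control names added. The single name chi-miR-125b-5p had 614, 401 and 467 CPM against 199, 280 and 179 CPM (1.17, adjusted p = 0.00722).

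**Figure D4:**
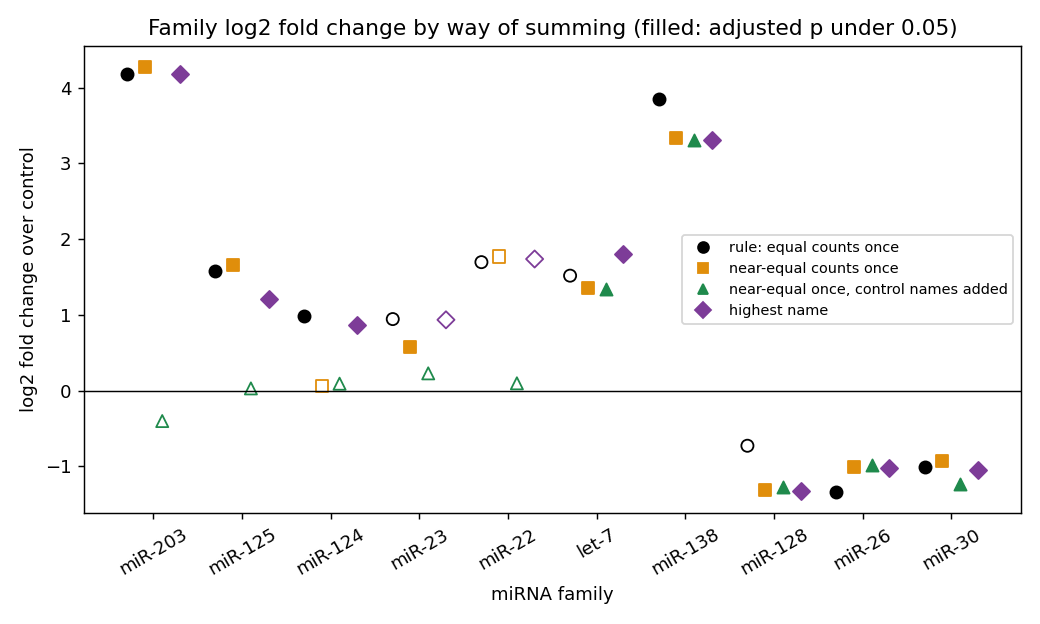
Log2 fold change of 10 family totals, source oil 0.25% over control, under 4 ways of summing names; filled markers have an adjusted p under 0.05 and open markers do not. The miR-203 value drops from 4.18 to -0.40 when control names of other tables are added, while miR-138, miR-26 and miR-30 stay on one side of 0 and filled in all 4.

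Library M5 differed most from its group. For 12 of 108 names M1 and M3 lay beyond the control range on one side and M5 did not, against 7 names for M1 and 3 for M3. Among the 12 were mse-let-7a, ssa-miR-206-5p, ola-miR-214 and ola-miR-204, the last at 1398, 939 and 6589 CPM in M1, M3 and M5 against 3965 to 5272 CPM in control. The SD of log2 CPM had a median over names of 0.313 in source M and 0.198 in control. Without M5, 68 names were called, 35 higher and 33 lower.

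The doses on either side were set against source M by direct tests of the libraries, over names listed in both tables. Against source oil at 0.125%, 0 of 77 families (0.0%) were called by edgeR's quasi-likelihood test, 18 had an unadjusted p under 0.05, and DESeq2 called 10. The groups did not overlap in 17 families (22.1%). Library L3 of that group lay with source M on the first principal component (7.08, against -3.12 and -2.88 for L1 and L2). Without L3, 20 families were called, 9 higher and 11 lower in source M. The lower ones included miR-126 (-2.76, adjusted p = 0.00237), miR-92 (-2.68, adjusted p = 0.00478), miR-155 (-2.36, adjusted p = 0.00399) and miR-196 (-2.05, adjusted p = 0.00399). The higher ones included miR-19 (2.25, adjusted p = 0.00478), miR-142 (2.11, adjusted p = 0.00478) and miR-137 (2.09, adjusted p = 0.00478). This setting leaves 2 libraries of 0.125%, and L3 is left out because of its values, not because of any label.

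Against source oil at 0.5%, 0 of 78 families (0.0%) were called, 3 had an unadjusted p under 0.05, and DESeq2 called 0, while 6 families (7.69%) did not overlap. Without library H1 of that group 1 family was called, miR-430, higher in source M (3.17, adjusted p = 0.0013). That test used names listed in both tables, and miR-430 reads can stand under names outside a table: control C5 held 1519 CPM of the family under the names of the source M table and 14196 CPM with names of other tables added. These counts do not show that the doses act alike. With scaling over the 99 names above 0 in all 21 libraries, ola-let-7g stood at 1996, 1821 and 1695 CPM in control, 2142, 2645 and 199 CPM at 0.125%, 159, 258 and 203 CPM at 0.25% and 89.0, 225 and 245 CPM at 0.5%. Libraries L1 and L2 lay above the controls, and L3 lay among the libraries of the higher doses. On the same scale tgu-miR-126-5p stood at 6835 to 8476 CPM in control, 19650, 14398 and 4231 CPM at 0.125%, 2505, 2561 and 2790 CPM at 0.25% and 964, 5274 and 5417 CPM at 0.5%. Its 0.25% libraries were the closest together of these 4 groups.

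**Figure D5:**
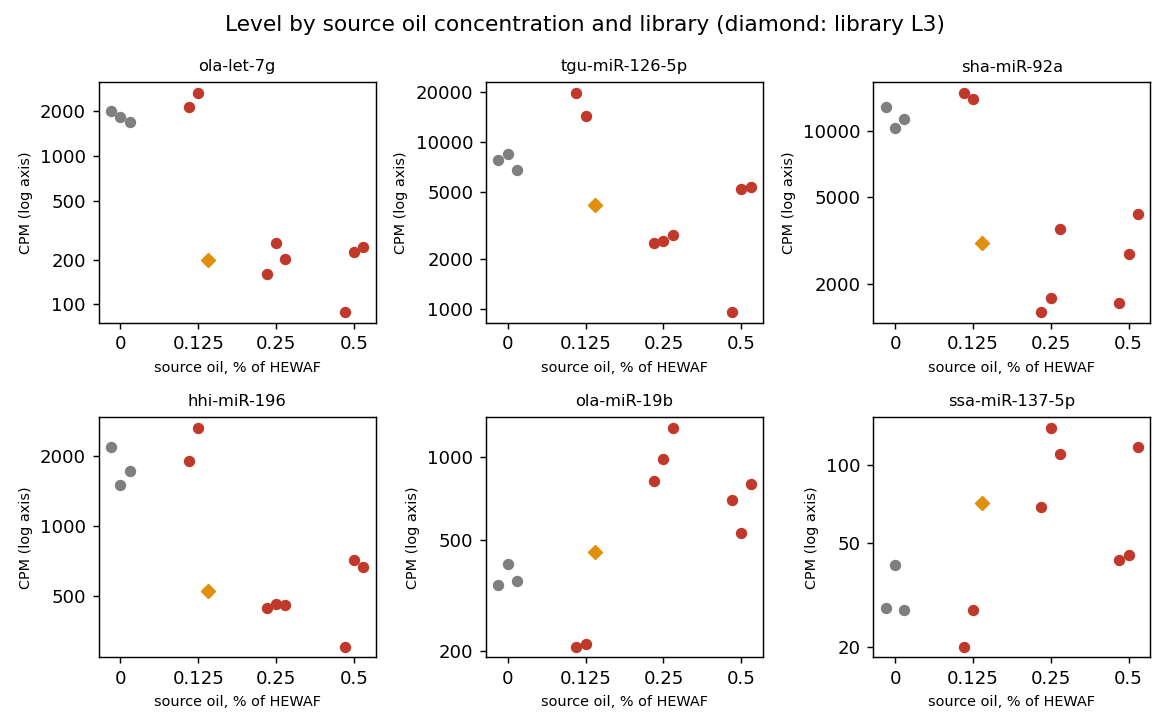
CPM on a log axis of 6 names in each library at 0, 0.125, 0.25 and 0.5% source oil, with scaling over 99 names; the diamond is library L3 of the 0.125% group. For ola-let-7g the 0.125% libraries split into 2142 and 2645 CPM and, for L3, 199 CPM, next to 159 to 258 CPM at 0.25%.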

How the data were processed

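Whole-number read counts per mature miRNA name were deposited by the authors, 1 table per exposure with 3 exposed and 3 control libraries. Libraries were made with a NEBNext small RNA kit, per the labels' protocols. The sources used here name no aligner, counter or genome. The authors' deposited result table gives group means of scaled counts (a signal), their difference (a score), a log2 fold change and p-values, and the submitters' processing notes name DESeq2. Column numbers differ from those of the titles, so columns were joined to groups. Lines repeating a name (12) took the highest count per library.

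Names above 0 in all 6 libraries (113, holding 78.5 to 87.3% of counts) entered the test of edgeR 4.0.16 in R 4.3.3 (TMM, filterByExpr with minimum count 10 and minimum total 15, glmQLFit, glmQLFTest), which left 108. Calls had a Benjamini-Hochberg adjusted p under 0.05 over all features tested. SE is the size of the log2 fold change divided by the root of F. Family totals dropped prefix, letter, copy and arm. The tests were checked on simulated counts in which most features were unchanged and no names shared or swapped reads. That check therefore does not cover the naming or the choice of scaling. DESeq2 1.42.0, other scalings, filters, sums and left-out libraries were alternatives.

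Named families were those called, up to 15 per direction by size without overlap; named single names were up to 12 per direction, called list members, members of families with opposite calls, and up to 10 names whose family was not called; other names were chosen after their values were seen. Members and lists were chosen with earlier results of these data known.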

Additional observations from a re-analysis of the deposited data

Results flagged for a closer look

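Names outside the single-name test that held counts in all 3 source M libraries and 0 in all 3 controls were 3 in number. The lowest source M count was 76099 for ipu-miR-203b, 9932 for gga-miR-30e-5p and 77 for dre-miR-139-5p. The controls held 169621 to 270078 counts of the miR-203 family and 68218 to 78996 of the miR-30 family under other names. The miR-30 names of other tables that held control counts were of the letters b and c. Whether control reads of miR-30e stood under any other miR-30 name was not tested. For miR-139, the name mdo-miR-139-5p of other tables held 0, 0 and 419 counts in C4, C5 and C6.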

How the results depend on the processing

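Of the single names, 61 were called as reported, 19 with total counts as scaling, 37 with total counts without miR-206 and miR-9, 36 with all names passing the count filter, and 40 to 68 when 1 library was left out, the lowest without C4. Of the family totals, 34 were called as reported, 10 with total counts (2 higher and 8 lower), and 17 to 35 when 1 library was left out: 19 without C4, 17 without C5 and 19 without C6. Against 0.125%, 0 families were called, 10 with DESeq2, 6 with total counts without miR-206 and miR-9, and 0 to 20 when 1 library was left out; with near-equal counts once this range was 0 to 24. Against 0.5%, 0 were called and 0 to 1 when 1 library was left out, also with near-equal counts once. Reversed log2 fold changes were miR-203 (-0.28 with names above 0 in all 6 libraries, -0.41 with control names added, -0.40 with near-equal counts once as well), miR-125 (-0.46 with control names added), miR-22 (-1.12 with names above 0 in all 6 libraries, from 1.70) and miR-124 with near-equal counts once (-0.12 without M5, -0.078 without C4). For miR-203, the added control names hold 96.0% of the control counts. For miR-125, the added name ipu-miR-125a held 5375, 0 and 4533 counts in C4, C5 and C6. With near-equal counts once, adding control names took the miR-125 total from 204 to 925 CPM in C4 and from 184 to 843 CPM in C6. In C5 it stayed at 277 CPM. For miR-22, the abundant pol-miR-22-5p was at 0 in 1 library and so was left out of the sum that gave -1.12. The only miR-22 name tested singly, ssa-miR-22b-5p, stood at -1.10. The cause of the miR-22 and miR-124 reversals was not tested. No paired analysis was possible because column numbers of the count table do not match the replicate numbers of the titles.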
